A study of Mus musculus with 2 samples.

Results

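Genes for 4 transmembrane proteins, a neurexin, a splicing regulator and an adaptor were followed across nuclei of the thick ascending limb (TAL). This nephron segment, the last part of the loop of Henle, reabsorbs NaCl, Ca2+ and Mg2+. The genes were Tmem52b, Tmem207, Tmem74, Tmem117, Nrxn3, Rbfox1 and Grb14, 7 of 32227 genes in the count tables. They were chosen by measured values of these same libraries, namely their levels in the TAL clusters and their sharing of nuclei, so cluster levels and pairings are given as descriptions. Nuclei came from B6 male mice, genotype labelled WT and age labelled 12 without a unit, that carried a tamoxifen-inducible Cre driven by the Slc12a1 promoter and a Cre-dependent Sun1-sfGFP nuclear tag. Tagged nuclei were sorted from dissected cortex, a superficial strip, and from the remaining medullary tissue, which still held deep cortex, and 1 single-nucleus library was made from each. Labels do not say how many mice contributed to a library. With 1 library per region there was no replicate, so no difference was tested, every interval given is a 95% interval that covers counting error only, and region and library cannot be told apart.

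Slc12a1, which encodes the Na+-K+-2Cl- cotransporter NKCC2 and defines the TAL, was used to select nuclei: 5218 of 5442 cortical barcodes (95.9%) and 7967 of 8121 medullary barcodes (98.1%) held at least 10 Slc12a1 counts. Their median depth was 2421 counts in cortex and 2426 in medulla, and no barcode was shared by the libraries. Paracellular cation transport divides the segment: Cldn10 encodes a claudin pore for Na+, whereas Cldn16 encodes a claudin needed for Ca2+ and Mg2+ passage. Kcnj10 encodes the basolateral K+ channel Kir4.1. Following the names used for these cells, TAL-α carries Cldn10 without Kcnj10, TAL-β carries Cldn16 with Kcnj10, and TAL-γ carries Cldn10 with Kcnj10. The macula densa (MD) is the plaque of sensing cells at the end of the cortical TAL.

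The deposited clusters were named from published marker lists of the same libraries. In cortex, cluster 1 was TAL-α-like, clusters 2 and 4 were TAL-β-like, cluster 5 carried the TAL-γ list although its Kcnj10 level was only 21.3 CPM (counts of a gene scaled to a common total of counts in the same nuclei), and cluster 3 was MD-like. In medulla, clusters 1 and 3 were TAL-α-like, clusters 2, 4 and 5 carried the TAL-γ list, cluster 6 was TAL-β-like and cluster 12 MD-like. The label of medullary cluster 4 goes against its Kcnj10 level of 0.865 CPM. Medullary cluster 7 was not named: it held Kcnj10 at 227 CPM together with both Cldn16 (172 CPM) and Cldn10 (122 CPM). Cortical clusters 6 and 7 and medullary cluster 10 carried proximal tubule genes, cortical cluster 9 podocyte genes and medullary cluster 9 genes of the distal tubule. Mitochondrial genes led cortical cluster 11 and medullary clusters 8 and 13, and cortical cluster 10 carried the MD list weakly (median depth 4585 counts), with 25 of its 144 nuclei left once the 5% of barcodes with the highest doublet scores were removed. It held Tmem52b at 441 CPM and Nrxn3 at 931 CPM and is not among the MD-like clusters whose levels are given, although settings named as TAL and MD clusters include it unless stated. Median depth reached 6412 counts in cortical cluster 6 and 7108 in medullary cluster 10, and Tmem52b stood at 263 to 621 CPM in cortical clusters 6, 7, 9, 10 and 11. What cells of other types share of these levels was not tested. Unless stated, the cluster levels below are those of the named TAL and MD clusters and of unnamed clusters 7 (medulla) and 8 (cortex). Settings named as TAL and MD clusters keep only clusters with such a name. They leave out unnamed medullary cluster 7 (535 nuclei) and cortical cluster 8 (273 nuclei) too.

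The 7 genes differ greatly in size and position, and 1 of them lies beside a reference gene. All positions are GRCm39 with GENCODE M39. Tmem207 (ENSMUSG00000091972, chr16:26322406-26345519, minus strand) and Cldn16 (chr16:26281885-26301515, plus strand) point toward each other across a gap of 20.9 kb. Tmem52b (ENSMUSG00000030160) occupies 6.69 kb at chr6:129489502-129496190 and Tmem74 (ENSMUSG00000054409) 8.44 kb at chr15:43725019-43733454. Tmem117 (ENSMUSG00000063296, chr15:94526788-94993980) and Grb14 (ENSMUSG00000026888, chr2:64742812-64855331) span 467 kb and 112.5 kb. Nrxn3 (ENSMUSG00000066392, chr12:88689646-90301709) and Rbfox1 (ENSMUSG00000008658, chr16:5124665-7230343) span 1612 kb and 2106 kb. Long genes offer more intronic priming sites to a 3′ nuclear library, so levels are compared for 1 gene between nuclei and not between genes. The last 20.9 kb of Tmem117 lie opposite Nell2, and counting by strand is not given in the sources used here.

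The sequences upstream of Tmem52b, Tmem207 and Cldn16 are shown because these genes carry the contrast between claudin and Kcnj10 nuclei described next and because Tmem207 and Cldn16 are neighbours with unlike patterns. Each is the 200 bases before the start of the gene's canonical transcript, read from GRCm39 on the gene's own strand, with CpG dinucleotides in capitals. Positions are chr6:129489302-129489501, chr16:26345513-26345712 and chr16:26281685-26281884 in that order.
Tmem52b: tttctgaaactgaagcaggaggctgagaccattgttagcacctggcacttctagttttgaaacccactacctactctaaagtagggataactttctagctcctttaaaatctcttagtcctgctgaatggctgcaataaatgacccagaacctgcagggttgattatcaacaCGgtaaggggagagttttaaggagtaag
Tmem207: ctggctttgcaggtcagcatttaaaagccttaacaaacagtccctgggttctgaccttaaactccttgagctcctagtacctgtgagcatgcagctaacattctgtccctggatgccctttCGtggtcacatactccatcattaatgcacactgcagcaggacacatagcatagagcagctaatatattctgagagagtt
Cldn16: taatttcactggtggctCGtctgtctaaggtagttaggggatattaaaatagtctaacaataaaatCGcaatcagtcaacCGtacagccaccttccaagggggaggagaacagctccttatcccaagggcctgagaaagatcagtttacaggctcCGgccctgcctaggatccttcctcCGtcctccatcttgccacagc
Tmem52b and Tmem207 each held 1 CpG in this window and Cldn16 held 5. Over 21770 protein-coding genes with a window of the same length the median was 7, and 19.6% held 0 or 1. Grb14 held 18, the most among the 7 genes and 3 references. Count tables of 3′ tags do not show which start site was used.

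Tmem52b, a transmembrane protein of little known function, was highest in the TAL-β-like clusters of both libraries. Its level was 1254 CPM (interval 1208 to 1301) in cortical cluster 2, 1697 (1624 to 1772) in cortical cluster 4 and 943 (901 to 986) in medullary cluster 6. In TAL-α-like and TAL-γ-like clusters it lay between 1.94 and 30.8 CPM, and in MD-like cortical cluster 3 and medullary cluster 12 at 17.9 and 5.34 CPM. Unnamed medullary cluster 7 was intermediate at 129 CPM. At least 1 count was present in 87.8% of cluster 2 barcodes, 91.7% of cluster 4 and 78.2% of medullary cluster 6. Proximal tubule barcodes with at most 2 Slc12a1 counts were taken as a background. There the share was 14.5% of 83 in cortex (median depth 3436) and 3.00% of 100 in medulla (median depth 4571). The level there was 73.6 CPM in cortex and 6.49 CPM in medulla, against 15.2 and 4.73 CPM in the TAL-α-like clusters numbered 1. Whether proximal tubule nuclei express the gene was not tested.

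Tmem207, a small transmembrane protein, followed Kcnj10 more than either claudin across the medullary clusters. In medulla it was highest in cluster 5, the TAL-γ-like cluster with the most Kcnj10, at 2264 CPM (2203 to 2326), then in unnamed cluster 7 at 1385 CPM, TAL-β-like cluster 6 at 934 CPM and TAL-γ-like cluster 2 at 776 CPM. TAL-α-like clusters 1 and 3 held 8.22 and 22.5 CPM, and cluster 4, which lacks Kcnj10, held 44.6 CPM. The 6 medullary clusters with the most Kcnj10 (67.2 to 227 CPM) were also the 6 with the most Tmem207 (554 to 2264 CPM). These 6 include cluster 8, led by mitochondrial genes, and cluster 9, which carried distal tubule genes. Cluster 9 kept 59 of its 157 nuclei without the highest doublet scores. In cortex the gene was high in only 1 of the TAL-β-like clusters. Cluster 2 held 733 CPM (698 to 769) and cluster 4 held 41.8 CPM (31.0 to 55.1). Their Kcnj10 levels lay closer together, at 221 and 167 CPM. Cortical TAL-α-like nuclei held 1.76 CPM and MD-like nuclei 1.56 CPM. A Tmem207 count was found in 0 of 83 cortical and 1 of 100 medullary proximal tubule barcodes. A count of 0 in 83 barcodes, taken against a limit of 3, allows a share of barcodes with a count of up to 3.61%.

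Nrxn3, a neurexin known as a presynaptic adhesion receptor for neuroligins and other partners, had the opposite cortical pattern. Cluster 4 held 6872 CPM (6724 to 7022), cluster 2 held 778 CPM and cortical clusters 1, 3 and 5 held between 65.2 and 314 CPM. The median count per barcode was 13 in cluster 4 and 0 in cluster 2, where the 95th percentile was 10. In medulla TAL-β-like cluster 6 held 1059 CPM, MD-like cluster 12 held 422 CPM and the other named TAL clusters between 10.4 and 91.2 CPM. Medullary cluster 6 was uneven: its median Nrxn3 count was 0, its 95th percentile 17 and its maximum 73. An Nrxn3 count was also present in 18.1% of the cortical and 7% of the medullary proximal tubule barcodes. A minority of the nuclei of medullary cluster 6 carried counts as high as those of cortical cluster 4.

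Rbfox1, an RNA-binding regulator of alternative splicing, ran with Tmem207 across the TAL-β-like clusters. It reached 882 CPM (843 to 922) in cortical cluster 2 and 87.7 CPM (71.7 to 106) in cluster 4. In medulla it was 1661 CPM in unnamed cluster 7, 1534 CPM in TAL-β-like cluster 6 and 1291 CPM in TAL-γ-like cluster 5, but 311 CPM in TAL-γ-like cluster 2, where Tmem207 was still 776 CPM. MD-like nuclei held 47.4 CPM in cortex and 5.34 CPM in medulla. Its share of barcodes with a count cannot be read as simply as for Tmem207: 33.7% of the cortical and 21% of the medullary proximal tubule barcodes also had one, above the 17.2% of cortical TAL-α-like cluster 1. Among the TAL clusters described here, cortical cluster 2 (50.4% of barcodes) and medullary clusters 5, 6 and 7 (49.4%, 60.4% and 56.8%) lay above those shares.

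Tmem117, a multi-pass membrane protein, had a count in 80.2% of cortical TAL nuclei, against 12.0% of the cortical proximal tubule barcodes, and was the one gene of the 7 with its highest level in MD-like clusters of both libraries, level with unnamed cluster 8 in cortex. MD-like clusters held 1520 CPM (1454 to 1589) in cortex and 1575 CPM (1401 to 1766) in medulla, levels whose intervals overlapped. Cortical TAL-α-like and TAL-β-like clusters held 540 to 1171 CPM. In medulla it was 700 and 163 CPM in TAL-α-like clusters 1 and 3, 484 CPM in TAL-β-like cluster 6 and between 29.4 and 83.7 CPM in the clusters with the TAL-γ list. Unnamed cortical cluster 8, with 1 count each of Tmem207 and Kcnj10 in 273 nuclei, also held 1520 CPM.

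Grb14, an adaptor that binds and restrains the activated insulin receptor, and Tmem74, a membrane protein linked to autophagy, leaned toward TAL-β-like nuclei at different depths of detection. Grb14 was 397 CPM and 480 CPM in cortical clusters 2 and 4 and 368 CPM in medullary cluster 6, against 206 and 170 CPM in the TAL-α-like clusters numbered 1 and 35.8 CPM in cortical MD-like nuclei. A Grb14 count was present in 13.2% of the cortical and 1.00% of the medullary proximal tubule barcodes. Tmem74 was rare. It gave 140 counts in 5218 cortical and 34 in 7967 medullary nuclei, and 94 of the cortical counts lay in clusters 2 and 4. In medulla 25 of the 34 counts were in cluster 6, and none was seen in clusters 2 to 5. With 0 of 1326 barcodes, cluster 2 allows a share of nuclei with a count of up to 0.226% by the same limit, which does not bound the nuclei that express a gene found in only 3.27% of cluster 6.

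**Figure D1:**
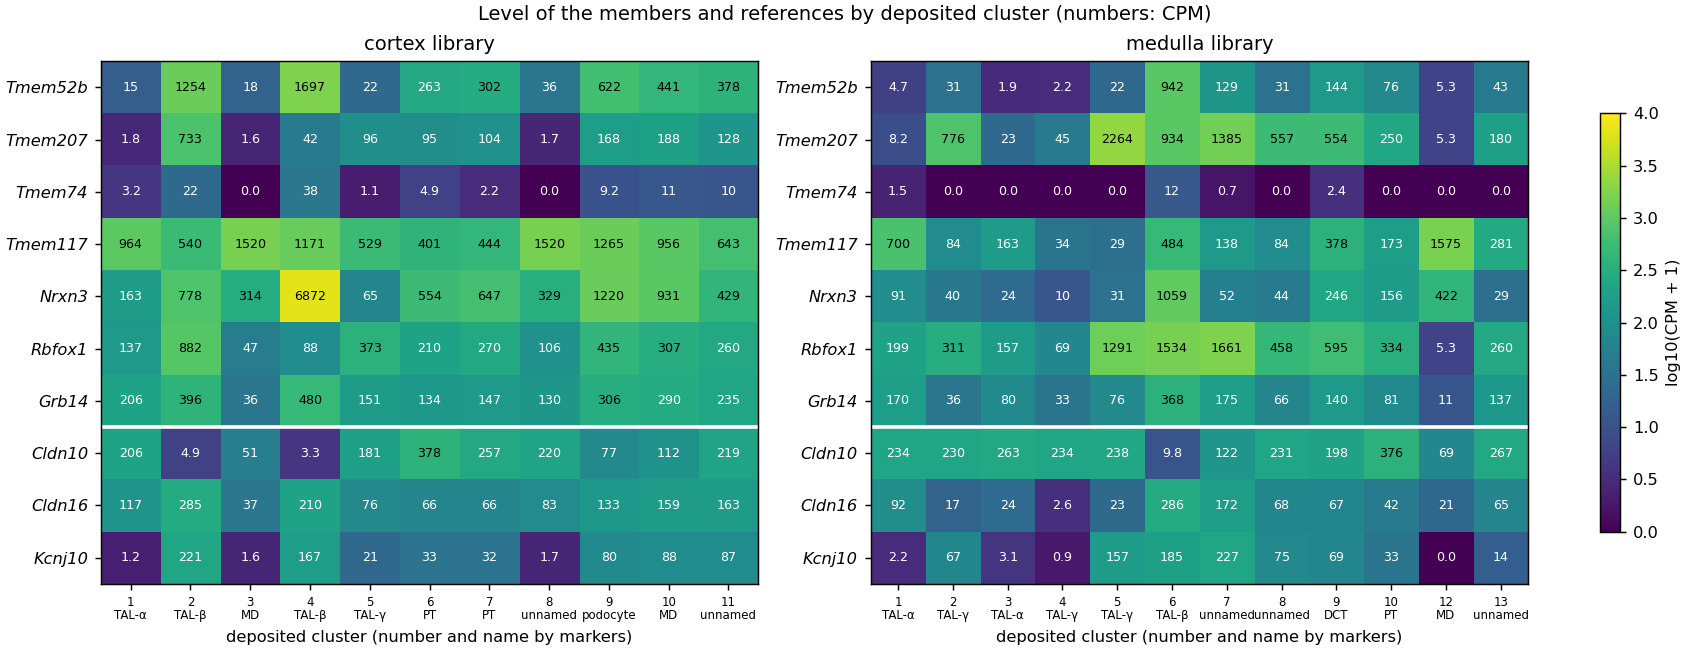
Summed CPM of the 7 genes and of Cldn10, Cldn16 and Kcnj10 (rows) in each deposited cluster (columns, with its name by markers) among nuclei with at least 10 Slc12a1 counts, cortex left and medulla right; colour is log10(CPM + 1) and the white line separates the references. Tmem52b is between 943 and 1697 CPM in cortical clusters 2 and 4 and medullary cluster 6, while Tmem207 and Rbfox1 are high in cortical cluster 2 and Nrxn3 in cortical cluster 4.

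The 2 cortical TAL-β-like clusters differed less in Cldn16, Kcnj10 and Tmem52b than in Nrxn3, Tmem207 and Rbfox1. Cluster 4 relative to cluster 2 had 0.736 times the Cldn16 (0.633 to 0.853), 0.755 times the Kcnj10 and 1.35 times the Tmem52b, none of which passed the fold rule (a ratio of at least 2 or at most 0.5 with an interval that excludes 1). Nrxn3 was 8.83 times (8.38 to 9.30) and Tmem117 2.17 times (2.01 to 2.34) as high in cluster 4. Tmem207 was 0.0570 times (0.0421 to 0.0755) and Rbfox1 0.0994 times (0.0809 to 0.121) as high. Of the 7 genes 2 were higher and 2 lower, when 2.53% and 2.32% of 10613 genes were. The deposited clusters were built on all genes, these included, and this contrast was chosen after the levels had been seen.

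To see the split without clusters, nuclei with at least 3 Tmem52b counts were ordered by their Nrxn3 count. In cortex a Tmem207 count was present in 66.9% of the 378 nuclei with no Nrxn3 count, 61.1% of 149 with 1 to 2, 38.2% of 251 with 3 to 9 and 13.6% of 403 with at least 10. In medulla the shares were 81.7% of 218, 72.1% of 43, 51.1% of 47 and 19.0% of 58. Rbfox1 went over the same bins from 51.3% to 26.3% in cortex and from 66.5% to 15.5% in medulla. Tmem117 went the other way, from 68.8% to 90.8% in cortex and from 54.6% to 84.5% in medulla. The shares of Cldn16 and Kcnj10 differed less between the end bins, 45.2% to 39.5% and 38.9% to 32.0% in cortex, and 51.4% to 44.8% and 39.0% to 41.4% in medulla. Their cortical levels were lower in the highest bin. Cldn16 went from 212.8 CPM (188.1 to 239.7) to 154.3 CPM (135.5 to 174.9), and Kcnj10 from 171 CPM (149 to 195.3) to 113.2 CPM (97.21 to 131). In medulla the intervals of the end bins overlapped for both genes. Cldn10 was higher in the highest cortical bin, at 154.9 CPM (136.1 to 175.6) against 64.62 CPM (51.39 to 80.21) in the lowest. These were 245 and 82 counts, whereas TAL-β-like clusters 4 and 2 held 4 and 11 Cldn10 counts in all. Most Cldn10 counts of both bins therefore lay in nuclei outside the TAL-β-like clusters. Of the 1181 cortical nuclei in the bins, 883 lay in TAL and MD clusters. In medulla Cldn10 was 81.58 and 36.62 CPM in these bins, with overlapping intervals. Median depth was 2808 counts in the lowest and 2551 in the highest cortical bin, and 2831 and 2694 in medulla. In both libraries, then, the Tmem52b nuclei with the most Nrxn3 had Tmem207 and Rbfox1 least often. These bins and the counts that follow were chosen after the values had been seen.

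**Figure D2:**
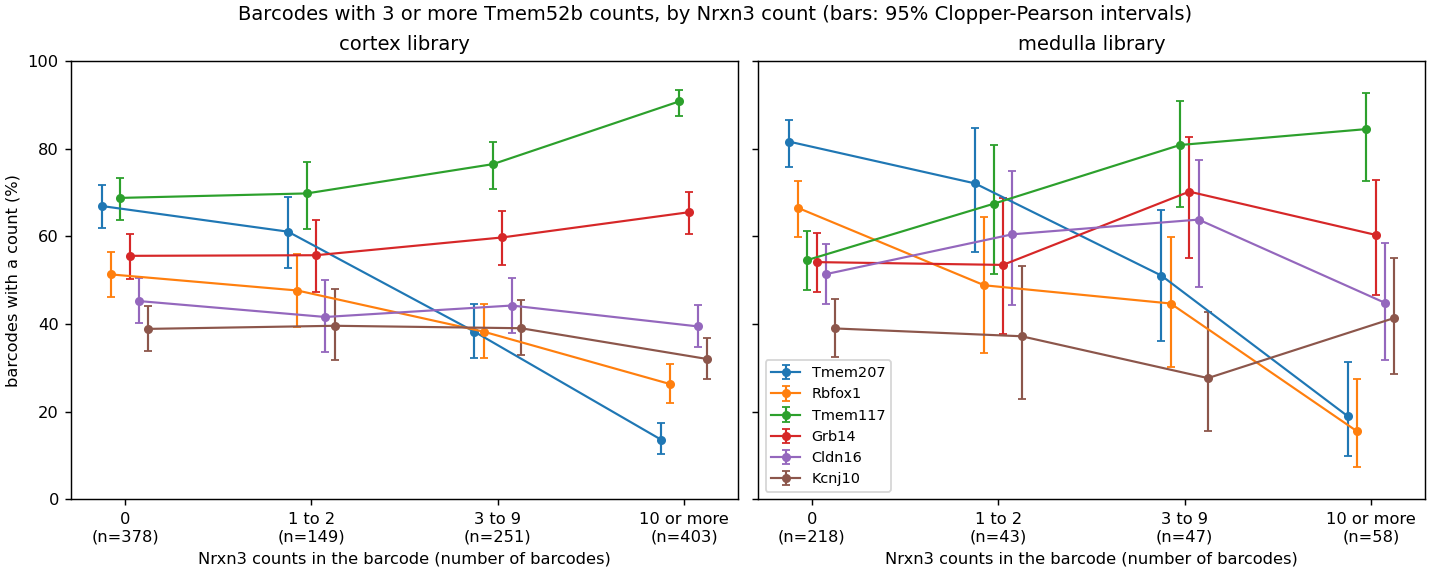
Share of nuclei with at least 1 count of Tmem207, Rbfox1, Tmem117, Grb14, Cldn16 or Kcnj10 (y axis, percent) among nuclei with at least 3 Tmem52b counts, by Nrxn3 count (x axis, with the number of nuclei), in cortex (left) and medulla (right); bars are 95% Clopper-Pearson intervals. Tmem207 goes from 66.9% to 13.6% in cortex and from 81.7% to 19.0% in medulla.

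At higher counts the exclusion could be counted directly. Among the 1181 cortical nuclei with at least 3 Tmem52b counts, 403 had at least 10 Nrxn3 counts and 207 at least 3 Tmem207 counts, and 20 had both where 65.6 were expected from the shares within depth bins (ratio 0.305, 0.186 to 0.471). Among 366 medullary nuclei 58 and 135 were rich in each, and 2 had both where 19.6 were expected (0.102, 0.0123 to 0.368). For Rbfox1 at 3 or more counts the ratios were 0.548 (0.388 to 0.752) in cortex and 0.236 (0.0768 to 0.552) in medulla. The 20 cortical nuclei rich in all 3 genes had a median depth of 7580 counts and the 2 medullary ones 12104, against 2479 and 3046 in the cortical nuclei rich in Nrxn3 or in Tmem207 alone. Without the 5% of barcodes with the highest doublet scores, 11 cortical nuclei with both remained where 52.2 were expected (0.211), and in TAL and MD clusters alone 9 where 42.2 were expected (0.213). The corresponding medullary values were 0.0564 and 0.0612.

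With rich meaning at least 3 counts of Tmem52b or Tmem207 and at least 10 of Nrxn3, 3 sets of nuclei were compared. Nuclei rich in Tmem52b and Nrxn3 but not Tmem207 numbered 383 in cortex and 56 in medulla. They held 33.4 and 69.8 CPM of Tmem207, 188 and 134 CPM of Rbfox1, and 904 and 925 CPM of Tmem117. The low Tmem207 of this set and the lower Nrxn3 of the next follow from how the sets were defined. Nuclei rich in Tmem52b and Tmem207 but not Nrxn3 numbered 187 and 133 and held 366 and 179 CPM of Nrxn3, 622 and 1526 CPM of Rbfox1, and 490 and 334 CPM of Tmem117. Cldn16 was 159 and 212 CPM in these sets in cortex and 221 and 286 CPM in medulla. Its intervals overlapped in both libraries, in cortex only narrowly (138.5 to 181.3 and 180 to 247.4). Kcnj10 was lower in the first set in cortex, at 114.6 CPM (97.42 to 133.9) against 167.5 CPM (139.4 to 199.5). In medulla Kcnj10 was 203.6 and 170.5 CPM, with overlapping intervals. Cldn10 was 149 CPM (129.7 to 171.3) and 84.4 CPM (64.86 to 108) in cortex, intervals that did not overlap. In medulla it was 58.2 and 39.3 CPM, with overlapping intervals. Cortical TAL-β-like clusters 4 and 2 as a whole held just 3.34 and 4.93 CPM of Cldn10. Those clusters gave just 4 and 11 Cldn10 counts, against 206 and 63 in the first and second cortical sets. Most Cldn10 counts of both cortical sets therefore lay in nuclei outside the TAL-β-like clusters. Of the first set 72.3% in cortex and 91.1% in medulla lay in TAL-β-like clusters, and of the second 67.9% and 80.5%.

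The last set had at least 3 Tmem207 counts and no Tmem52b count. It numbered 1496 nuclei in medulla, of which 4.95% lay in the TAL-β-like cluster, and 60 in cortex, of which 51.7% did. The medullary nuclei held 205 CPM of Cldn10 (191 to 220) and 62.1 CPM of Cldn16 (54.6 to 70.4), where nuclei rich in Tmem52b and Tmem207 held 39.3 and 286 CPM. Kcnj10 intervals overlapped between these sets, at 162 CPM (150 to 175) against 171 CPM (135 to 213). Rbfox1 was 1300 and 1526 CPM, Grb14 86.7 and 302 CPM, and Tmem117 82.6 and 334 CPM. In medulla, therefore, high Tmem207 was found both in nuclei with mostly Cldn16 and in nuclei with mostly Cldn10.

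**Figure D3:**
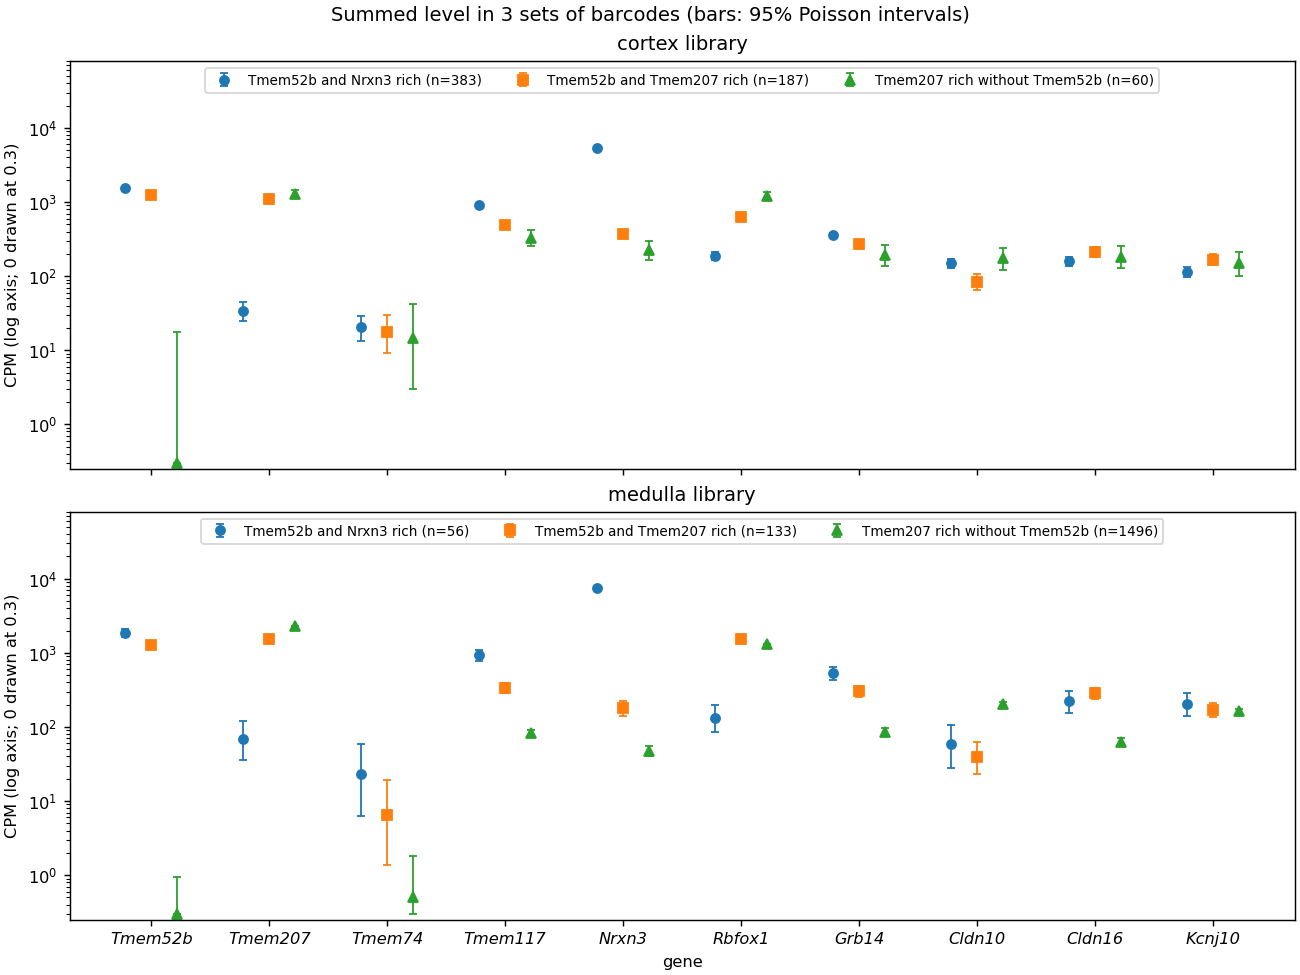
Summed CPM (y axis, log scale, 0 drawn at 0.3) of the 7 genes and 3 references (x axis) in nuclei rich in Tmem52b and Nrxn3, rich in Tmem52b and Tmem207, or rich in Tmem207 without Tmem52b, cortex above and medulla below; bars are 95% Poisson intervals. Levels of the genes that define a set follow from its definition. In medulla Cldn10 is 205 CPM and Cldn16 62.1 CPM in the last set, against 39.3 and 286 CPM in nuclei rich in Tmem52b and Tmem207.

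Genes ranked in the cortical cluster contrast were then measured in the medullary sets, which had themselves been chosen after their values were seen. The 12 genes most unequal in each direction between cortical clusters 4 and 2, among 5646 genes with at least 100 counts, included Nrxn3, Tmem207 and Rbfox1. Nrxn3 and Tmem207, which define the medullary sets, and Rbfox1, described above, were left out of the counts. The 11 genes higher in cortical cluster 4 all had a ratio above 1 in medullary nuclei rich in Nrxn3 over those rich in Tmem207, and 6 passed the fold rule when 3.63% of 5395 genes did. The other 5 had fewer than 20 counts. Each of the 6 had more counts in the Nrxn3-rich nuclei, although those numbered 56 against 133. They thus reached 20 counts mainly through the set where they were high, so the number passing depends on that minimum. The 10 genes higher in cortical cluster 2 all had a ratio under 1, and 8 passed when 4.06% did. Among genes with at least 20 counts the median ratio was 8.87 for the first list, taking genes with 0 counts at a floor of 3, 0.251 for the second and 0.981 over all genes. With the 5 genes under 20 counts the first median was 7.10. Examples on the first side were Fstl1, a secreted follistatin-like protein, at 28 and 7 counts (ratio 10.6, 4.54 to 28.9), Robo2, an axon guidance receptor, at 35 and 1 counts (93.1, 15.6 to 3783), and Tmtc1 at 21 and 0 counts (at least 13.9-fold higher by the lower limit of its interval). Examples on the second side were Pcsk6, a proprotein convertase (0.156, 0.0733 to 0.293), and Cacnb4, a calcium channel subunit (0.253, 0.198 to 0.319). Sim2, a transcription factor that was 0.0392 times as high in cortical cluster 4, had a medullary ratio of 0.586 (0.295 to 1.08), and Zfpm2 one of 0.990 (0.521 to 1.79). In the cortical sets of the same kind Robo2, which is also on the MD marker list, did not pass, at 242 and 93 counts (1.409, 1.105 to 1.809). Greb1l, Zfpm2, Cpq and Dysf, all higher in cortical cluster 2, did not pass there either (0.844, 0.722, 0.996 and 0.626). The other listed genes passed there in the direction of the cluster contrast. That follows largely from the choice of genes, which was made in this same library. Of the 2 cortical sets 72.3% and 67.9% of nuclei lay in the clusters used for the ranking. These genes were named after their values had been seen.

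**Figure D4:**
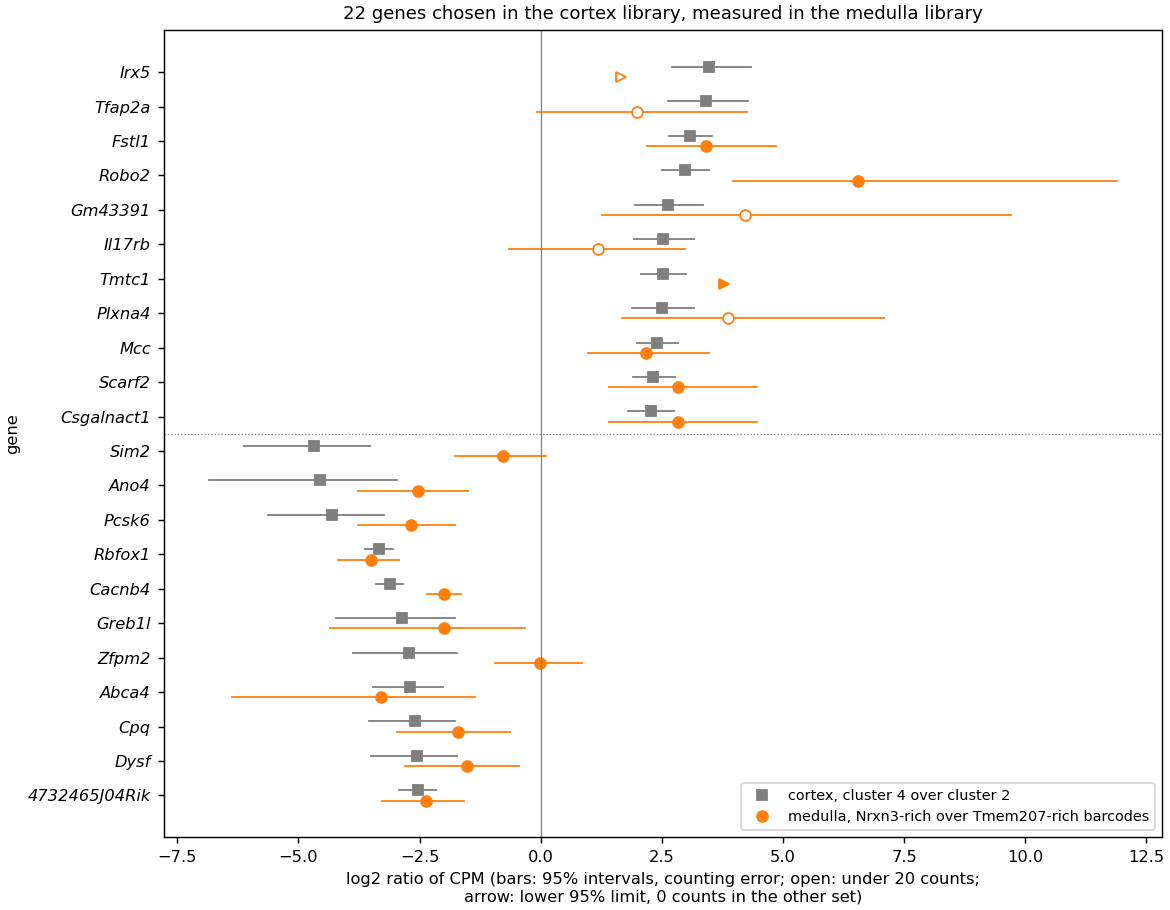
Log2 ratios (x axis) of 22 genes (y axis) between cortical clusters 4 and 2 (grey squares) and between medullary nuclei rich in Tmem52b and Nrxn3 and those rich in Tmem52b and Tmem207 (orange); bars are 95% intervals for counting error, open symbols rest on fewer than 20 counts and arrows mark the lower 95% limit where the other set held 0 counts. The upper 11 genes lie above 0 and the lower 11, Rbfox1 among them, below 0 in both libraries, Zfpm2 at a medullary ratio of 0.990.

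Which pairs share a nucleus was counted over all 45 pairs of the 7 genes and the 3 references, with at least 1 count as presence. The expected number came from the shares within 10 bins of depth, and a pair was called sharing at a ratio of at least 1.5 and excluding at 0.67 or less, with an interval that excludes 1 and at least 5 expected. In cortex 10 pairs shared nuclei and 4 excluded each other of 45 judged. In medulla 16 shared and 3 excluded of 43 judged. Over all pairings of these 10 genes with every other gene the shares were 0.511% and 0.596% in cortex and 1.25% and 0.964% in medulla.

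Tmem52b and Tmem207 shared nuclei in both libraries, in 780 cortical nuclei against 376 expected (ratio 2.08, 1.93 to 2.23) and 686 medullary nuclei against 352 (1.95, 1.80 to 2.10). The overlap was lopsided. In cortex 85.5% of nuclei with Tmem207 had Tmem52b, and 39.6% of nuclei with Tmem52b had Tmem207. In medulla the order turned, to 24.3% and 72.8%. Both genes also shared nuclei with Kcnj10: Tmem52b at 2.13 in cortex and 2.33 in medulla, Tmem207 at 2.44 and 2.30.

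Tmem207 and Rbfox1 shared nuclei at 1.75 (1.60 to 1.91) in cortex and 1.80 (1.71 to 1.90) in medulla. Tmem52b and Nrxn3 did so at 1.58 (1.498 to 1.67) and 2.44 (2.16 to 2.76). Nrxn3 with Tmem207 stood near 1, at 1.08 (0.978 to 1.19) in cortex and 1.02 (0.913 to 1.15) in medulla, and Nrxn3 with Rbfox1 at 0.995 and 1.10. At a threshold of 1 count over all nuclei these last pairs neither shared nor excluded. The exclusion given above was counted within Tmem52b nuclei and at higher counts.

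Most of the excluding pairs involved Cldn10. Tmem52b with Cldn10 stood at 0.545 (0.488 to 0.607) in cortex and 0.382 (0.321 to 0.451) in medulla, and Tmem74 with Cldn10 at 0.486 and 0.380. Tmem207 with Cldn10 excluded in cortex, at 0.494 (0.416 to 0.581), and not in medulla, at 0.824 (0.770 to 0.881), and these intervals did not overlap. Cldn10 also has counts in proximal tubule nuclei, in 72.3% of the 83 cortical and 73.0% of the 100 medullary barcodes of that kind. In TAL and MD clusters alone the cortical ratios were 0.223 for Tmem52b and 0.181 for Tmem207, while medullary Tmem207 stayed at 0.819. The remaining excluding pairs were Cldn10 with Kcnj10 in cortex (0.534) and Tmem207 with Tmem117 in medulla (0.654, 0.603 to 0.708). The latter pair stood at 0.787 in cortex and was not called there.

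Cldn16 with Tmem52b was called sharing in medulla only, at 2.45 (2.21 to 2.71) against 1.41 in cortex, and Cldn16 with its chromosome 16 neighbour Tmem207 in neither library, at 1.43 in cortex and 1.39 in medulla. In medulla Nrxn3 and Grb14 also shared nuclei with Cldn16, at 1.77 and 1.58, and with each other at 1.53. Within the deposited clusters, each in 2 bins of depth, no pair of the 45 was called in cortex and the ratios ran from 0.823 to 1.199. In medulla 1 was, Tmem74 with Nrxn3 at 1.84, and the ratios ran from 0.656 to 1.84. With 2 bins of depth and no clusters, 12 pairs shared and 4 excluded in cortex and 17 and 3 in medulla. Some ratios within clusters were small but had intervals that excluded 1, among them medullary Tmem207 with Rbfox1 (1.153, 1.09 to 1.21) and Tmem117 with Nrxn3 (1.21, 1.10 to 1.33). The deposited clusters were themselves built on these genes. In joint clusters made without the 10 genes no pair was called in either library.

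**Figure D5:**
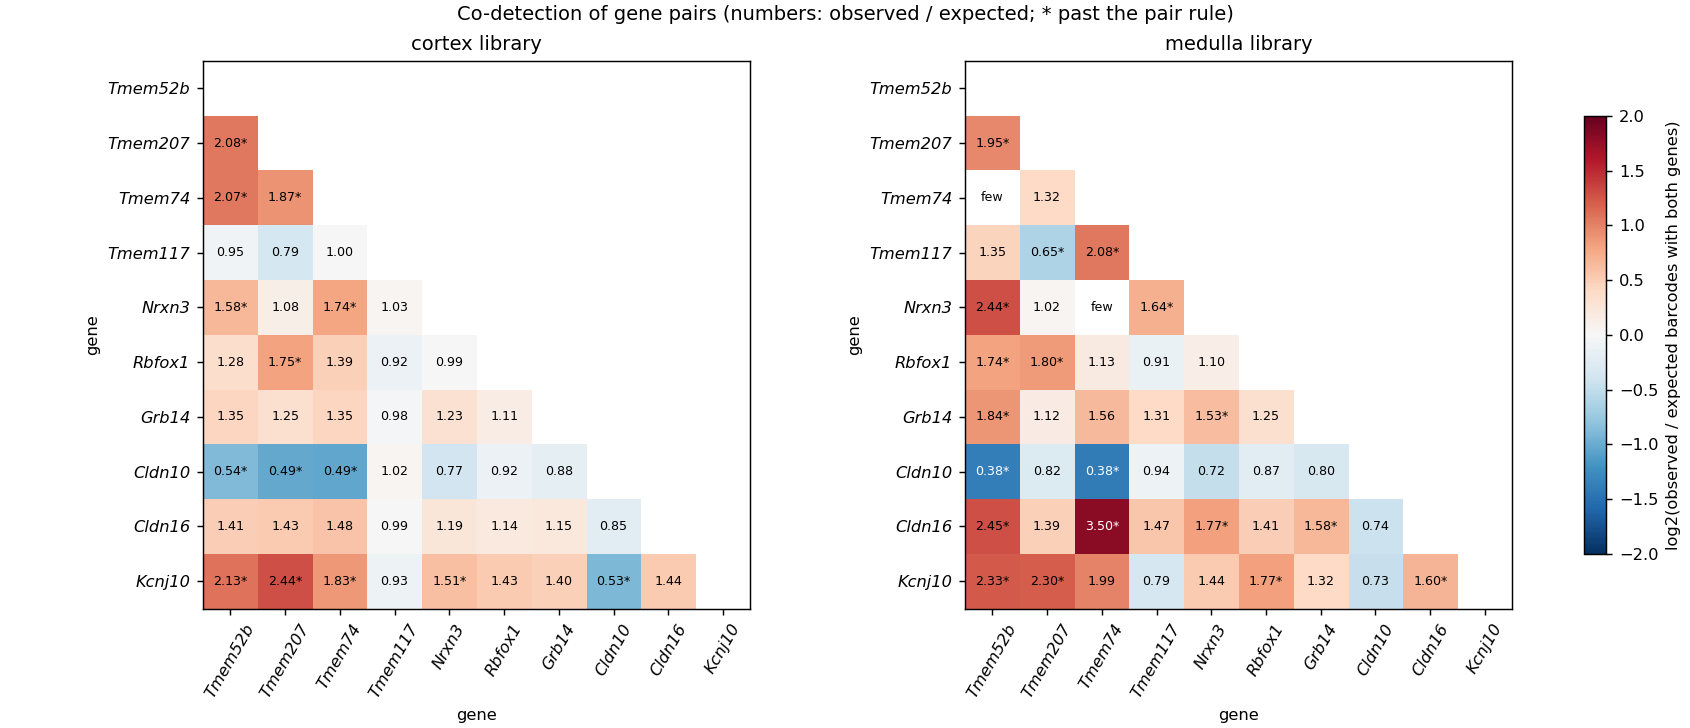
Observed over expected number of nuclei with both genes (numbers; colour is its log2) for all 45 pairs of the 7 genes with each other and with Cldn10, Cldn16 and Kcnj10, cortex left and medulla right; stars mark pairs past the rule and "few" those with under 5 expected. The Cldn10 row is below 1 for Tmem52b in both libraries (0.545 and 0.382), and the Kcnj10 row is above 2 for Tmem52b and Tmem207 in both.

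Nuclei were then sorted by their claudin alone. The 2 claudins were not called excluding, at 0.854 (0.770 to 0.944) in cortex and 0.744 (0.664 to 0.831) in medulla. A Cldn16 count was also present in 22.9% of cortical TAL-α-like cluster 1, so Cldn16 nuclei are not all TAL-β-like. In cortex 1029 nuclei held Cldn16 without Cldn10 and 1036 the reverse, with median depths of 2540 and 2826. Another 380 held both and 2773 neither. Tmem52b was 5.53 times (5.06 to 6.04), Tmem207 5.39 times (4.66 to 6.26), Tmem74 7.88 times (3.84 to 18.2) and Nrxn3 3.64 times (3.44 to 3.85) as high in Cldn16 nuclei, so that 4 of 7 passed the rule when 2.06% of genes did. Rbfox1 at 1.98, Grb14 at 2.00 (1.996 before rounding) and Tmem117 at 1.27 did not pass. In medulla the groups held 778 and 2574 nuclei, with 316 holding both claudins and 4299 neither. Tmem52b was 24.7 times (20.7 to 29.6), Nrxn3 10.6 times (9.36 to 12.1), Grb14 3.29 times and Rbfox1 2.53 times as high, 4 of the 6 with at least 20 counts when 2.15% of genes did, whereas Tmem207 was 1.51 times (1.43 to 1.60) and Tmem117 1.84 times as high. Tmem74 gave 15 counts against 0, too few for the rule. None of the 7 in cortex and none of the 6 judged in medulla was lower in Cldn16 nuclei, when 7.44% and 4.13% of genes were. At such shares a count of 0 among so few genes does not set them apart. Cldn16 nuclei had 5.46 times the Kcnj10 in cortex and 3.07 times in medulla. In TAL and MD clusters alone the cortical ratios were 16.6 for Tmem52b, 9.38 for Tmem207, 14.3 for Tmem74 and 7.91 for Nrxn3, and Tmem117 turned to 0.907 (0.845 to 0.974). Without cortical cluster 10 they were 29.1, 14.5, 27.2 and 10.2, and 0.895 for Tmem117. Medullary Tmem52b was 48.5 times and Tmem117 2.01 times as high in TAL and MD clusters. Between TAL-β-like and TAL-α-like clusters of medulla Tmem117 stood at 0.986 (0.917 to 1.059). Between medullary nuclei with and without a Kcnj10 count it stood at 0.705 (0.646 to 0.7675).

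Nuclei were then split by Kcnj10 as well. In medulla nuclei with Cldn10 and Kcnj10 and no Cldn16 count, 233 in all, held 1638 CPM of Tmem207 (1547 to 1734) with a count in 88.4%, and 36.8 CPM of Tmem52b (24.2 to 53.5). Nuclei with Cldn10 alone, 2341 in all, held 430 and 18.8 CPM. Here alone means that no Kcnj10 or Cldn16 count was seen, and Kcnj10 is often missed. It had a count in just 39.8% of nuclei of TAL-β-like cortical cluster 2. TAL-α-like medullary clusters 1 and 3 held 8.22 and 22.5 CPM of Tmem207, so nuclei with Cldn10 alone are not all TAL-α-like. Nuclei with Cldn16 and Kcnj10 held 1140 CPM of Tmem207 and 686 CPM of Tmem52b. In medulla, Tmem207 was thus high with Kcnj10 beside either claudin, whereas Tmem52b was high with Kcnj10 and Cldn16 and low with Kcnj10 and Cldn10. In cortex, where just 68 nuclei with a median depth of 5788 counts held Cldn10 and Kcnj10 without Cldn16, Tmem207 was 238 CPM and Tmem52b 484 CPM, and the 260 nuclei with Cldn16 and Kcnj10 (median depth 2688) held 445 and 1238 CPM.

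Between the libraries Tmem207 was higher in medulla, and Nrxn3, Tmem52b, Tmem74 and Tmem117 were higher in cortex. Medulla over cortex, over all TAL nuclei, Tmem207 was 3.91 times as high (624 against 160 CPM, 3.74 to 4.08). Nrxn3 was 0.166 times (164 against 987 CPM), Tmem74 0.187 times, Tmem52b 0.269 times (122 against 455 CPM) and Tmem117 0.339 times (278 against 821 CPM) as high. Rbfox1 at 1.98 (582 against 294 CPM) and Grb14 at 0.539 did not pass, although Grb14 did in TAL and MD clusters alone (0.462) and after thinning to 1000 counts (0.480). So 1 of 7 was higher and 4 were lower, when 2.17% and 13.6% of 17505 genes were. Kcnj10 was 1.07 times (0.983 to 1.16), Cldn10 1.25 times and Cldn16 0.582 times as high. These sums mix how many nuclei of each kind were sampled with how much RNA each held, which they cannot tell apart. Among counts outside nuclei, in barcodes with at most 50 counts, Tmem52b was 517 CPM in cortex and 153 CPM in medulla and Tmem207 127 and 541 CPM, in the same order as the nuclei.

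Just inside the Slc12a1 threshold, at 10 to 14 counts, 155 cortical nuclei held 597 CPM of Tmem52b and 1769 CPM of Nrxn3. Just outside, at 5 to 9 counts, 55 barcodes held 690 and 2454 CPM. In medulla 25 and 5 barcodes lay there.

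Lists of genes related to the 7 by function or position, and a list of other Tmem genes, were measured by the same ratios and rule. Of 22 neurexin partners 14 had enough counts between the libraries, with none higher and 4 lower in medulla, when 2.17% and 13.6% of all genes were, and a median ratio of 0.725 against 0.913 over all genes. These were Adgrl3, a latrophilin, at 0.359, Apba1, a synaptic scaffold, at 0.242, Nlgn2, a neuroligin, at 0.385 and Nrxn2 at 0.445. No partner passed between Cldn16 and Cldn10 nuclei in either library (all genes, 2.06% higher and 7.44% lower in cortex, 2.15% and 4.13% in medulla), and 1, Adgrl2, was lower in cortical cluster 4 than in cluster 2 (0.296, 0.196 to 0.434), the reverse of Nrxn3. Of 20 splicing regulators Elavl3 was higher in medulla (3.49) and Khdrbs2 (0.231), Nova1 and Nova2 lower, with a list median of 0.927. In cortex Nova2 was higher and Khdrbs2 lower in Cldn16 than in Cldn10 nuclei, and Elavl3 was lower in cluster 4 than in cluster 2 (0.339, on 4 and 22 counts). Of 18 genes of the Grb14 family and its receptors Irs1, an insulin receptor substrate, was higher in medulla (2.35, 2.24 to 2.46) and Grb10, a close relative of Grb14, lower (0.290, 0.259 to 0.323), as were Fgfr3 and Fgfr4, with a list median of 0.908. Irs1 (0.442) and Egfr (0.409) were lower in cortical cluster 4 than in cluster 2. Egfr and Fgfr3 were lower in Cldn16 nuclei of cortex and Irs2 was higher in those of medulla (2.11). Of 14 measured Tmem genes 11 had enough counts, and 5 were lower, Tmem178 among them (0.326), and none higher in medulla, when 13.6% and 2.17% of all genes were. Tmem174 was lower in Cldn16 nuclei of both libraries (0.227 and 0.246) and Tmem140 in those of cortex, Tmem37, Tmem45b and Tmem61 were higher in those of medulla, and Tmem45b and Tmem61 were lower in cortical cluster 4 than in cluster 2. Of the 4 chromosome 16 neighbours of Tmem207, Cldn1 was lower in medulla, on 9 and 19 counts, and Cldn16 was higher in Cldn16 nuclei by their selection. For all these lists the Cldn16 and Cldn10 nuclei were not limited to TAL and MD clusters. Cldn10 had a count in 86.1% of nuclei in cortical cluster 6 and 66.4% in cluster 7, which carried proximal tubule genes. What such nuclei add to the ratios of the listed genes was not tested.

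The genes most like each of the 7 were found by the correlation of log2(CPM + 1) over the 23 deposited clusters of at least 50 nuclei, among 10979 genes. This is a description over clusters that share 2 libraries and their depth. Tmem52b was most like Foxq1 (r = 0.962), a forkhead transcription factor, followed by Zfp503 and Slc34a2. Tmem207 was most like Fgd3 (0.869), followed by Kcnj10 (0.864) and C1galt1. Tmem117 was most like Slc9a2 (0.972), a Na+/H+ exchanger, with Gm1604a and Maml2 next, Nrxn3 most like Fnbp1 (0.913), Wnk1 and Plxna2, and Grb14 most like Rtl4 (0.933), Bmp4 and Gm15241. Rbfox1 was most like Gm14636 (0.868) and Fgd3 (0.846). The next, 1700123O21Rik (0.843), lies inside Rbfox1 on the same strand, so reads of one may be counted for the other. Tmem74, with 173 counts in these clusters, had Foxq1 (0.885), Col5a2 and Mef2c as its nearest.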

How the data were processed

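Nuclei from 2 dissected regions were profiled by single-nucleus RNA sequencing with PIPseq 3′ chemistry, 1 library per region. The authors aligned reads to GRCm39 and counted them with PIPseeker; the annotation release is not given in the sources used here. The deposited values used are raw counts per gene and barcode, whole numbers without normalization, in a filtered matrix and a raw matrix, with PIPseeker's graph clusters. The authors' later doublet removal, ambient correction and integration are not in these counts, and no doublet or ambient correction was made here beyond the alternatives.

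Members and gene lists were chosen with earlier results of these data known. Nuclei were barcodes with at least 10 Slc12a1 counts. Python 3.11.15, numpy 2.4.6, scipy 1.17.1, pandas 2.3.3, scanpy 1.11.5, leidenalg 0.10.2 and scikit-learn 1.9.0 were used. CPM were summed counts of a gene over all summed counts of the same nuclei, with exact Poisson intervals; shares had Clopper-Pearson intervals, with a limit of 3 counts where none was seen, ratios conditional binomial ones, all at 95% and for counting error only. With 1 library per group no test was run. A ratio was called at 2 or 0.5 with 20 or more counts. Clusters were named where at least 3 markers were raised 1.5 times and the list's mean log2 ratio was at least 0.5, a limit set after seeing the data. Named genes were the 7 members, the references, at most 4 called genes per list and the 3 most similar genes per member; other listed genes were named after their values were seen, to complete small counts. The procedures recovered planted ratios and pairs in simulated counts. Alternatives changed the Slc12a1 threshold, quality filter, doublet scores, clusters kept, depth, scaling and pair expectation.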

Additional observations from a re-analysis of the deposited data

How the results depend on the processing

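No paired analysis was possible because each region has 1 library and the labels give no replicate numbers; for the same reason no library could be left out in turn. The number of members higher in medulla became 2 instead of 1 without the highest doublet scores, without the 10 most abundant genes and under median-of-ratios scaling, as Rbfox1 passed at 2.00, 2.01 and 2.10. Pairs sharing nuclei in cortex numbered 17 rather than 10 with no bins of depth. Within deposited clusters 0 pairs shared and 0 excluded in cortex and 1 shared and 0 excluded in medulla, and within joint clusters made without the 10 genes all 4 counts were 0. Medullary excluding pairs numbered 5 rather than 3 after thinning to 1000 counts and at 2 or more counts. The number of members higher in Cldn16 nuclei, 4 in each library, ran from 4 to 6 in cortex and from 4 to 5 in medulla. It was 6 in each between TAL-β-like and TAL-α-like clusters, and 3 in cortex and 5 in medulla between nuclei with and without Kcnj10. Members lower in medulla numbered 5 rather than 4 in TAL and MD clusters and after thinning, with Grb14 added. Called pairs that crossed 1 within deposited clusters were cortical Tmem74 with Kcnj10 (0.975), medullary Tmem52b with Rbfox1 (0.9985) and medullary Tmem74 with Cldn10 (1.096). Within joint clusters cortical Tmem74 with Kcnj10 (0.9563), cortical Cldn10 with Kcnj10 (1.029) and medullary Tmem74 with Cldn10 (1.291) did. The cause was not tested. No called member ratio crossed 1: of 63 medulla over cortex values 40 stayed inside the interval of the value reported, of 117 Cldn16 over Cldn10 values 59, and of 1071 pair values 735. Settings with 2 bins of depth alone and without cortical cluster 10 were chosen after seeing the data. The Nrxn3 and Tmem207 exclusion, chosen after seeing the data, ran from 0.2075 to 0.337 in cortex and from 0.0564 to 0.104 in medulla. In medulla the 2 nuclei rich in both genes limit that ratio, and 34 Tmem74 counts limit every medullary statement on it.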
